A study of Mus musculus with 6 samples.

Results

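The genes described here encode the mitochondrial respiratory chain and ATP synthase. They were chosen by symbol alone: names that start with Nduf, Uqcr or Atp5, or with Cox4, Cox5, Cox6, Cox7 or Cox8, together with Sdha, Sdhb, Sdhc, Sdhd, Cyc1 and Cycs. This gave 91 genes of 19938 with a probe set of their own, and each gene was read from its brightest probe set. Their RNA was measured on 1 array per tumor, in 3 colon tumors of mice with the genotype CDX2P-G19Cre;Apcflox/flox;Tgfbr2flox/flox, called double knockout tumors here, and in 3 of mice with CDX2P-G19Cre;Apcflox/flox, called Apc knockout tumors. All mice were labelled C57BL/6J and were 3 weeks old, and both genotypes carried the Cre transgene and the Apc deletion, so that by genotype only the deletion of Tgfbr2, a receptor of TGF-β, set them apart. The transgene is driven by a human CDX2 promoter fragment in colon epithelium, and it becomes active only where its reading frame is restored, which makes the deletions mosaic. Tumor tissue was taken by laser capture from frozen sections. The comparison asks what the loss of Tgfbr2 adds to Apc-deficient tumors. Tgfbr2 itself had log2 signals of 10.98, 10.35 and 10.47 in double knockout tumors, against 11.35, 11.37 and 11.09 in Apc knockout tumors. All 3 values of the double knockouts lay below those of the Apc knockouts (log2 difference -0.67, adjusted p = 0.82, limma), and whether the probes lie in the deleted exon is not known here.

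The respiratory chain sits in the inner mitochondrial membrane. Complex I takes electrons from NADH and complex II takes them from succinate. Ubiquinone carries them to complex III, cytochrome c carries them on to complex IV, where oxygen is reduced, and complex V uses the proton gradient to make ATP. A few core subunits are encoded by mitochondrial DNA and all others by nuclear genes. In the colon, mature colonocytes near the lumen rely on mitochondrial oxidation of short chain fatty acids, whereas proliferating crypt cells depend more on glycolysis.

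Subunits of every complex had somewhat higher mean signals in double knockout tumors. The difference was small, passed the adjusted threshold for no gene, and shrank when either of a pair of tumors was left out. Of the 91 genes, 75 were subunits found in most tissues: 34 of complex I, 4 of complex II, 9 of complex III, cytochrome c itself, 10 of complex IV and 17 of complex V. The other 16 were 7 assembly factors of complex I, 8 tissue-restricted isoforms and the supercomplex factor Cox7a2l. The log2 difference, double knockout minus Apc knockout, was above 0 for 75 of 75 subunits, with fold changes between 1.02 and 1.45. After the filter on level, 90 genes were tested with limma among 19506 probe sets, and 86 of them had a log2 difference above 0, against 52.3% of all probe sets tested. None of the 90 passed an adjusted p of 0.05 (lowest adjusted p 0.82, limma), nor did any other probe set (0.0% called). At an unadjusted limma p under 0.05, 5 respiratory chain genes were higher in double knockout tumors, where 1.78% of all probe sets were, and 1 was lower, where 3.82% were. The 5 were Ndufs7, Ndufs6, Ndufa2, Ndufaf3 and Uqcrc2, and the 1 was Cox6b2. The t-test named in the methods also gave 5 higher at an unadjusted p under 0.05 (2.1% of all probe sets), 0 lower (3.02%) and 0 of either direction after adjustment. The 3 double knockout tumors all lay above the 3 Apc knockout tumors for 18 of the 90 (5.25% of all probe sets) and all below for 1 (6.94%). Without double knockout tumor 2, 1 gene (Ndufs7) was higher (2.22% of all probe sets) and 2 (Cox6b2 and Cox7a2l) were lower (3.49%) at an unadjusted limma p under 0.05. A 2-fold difference was reached by 0 of the 90, and by 2.17% of all probe sets.

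The signals of the subunits ran in parallel from tumor to tumor. Averaged over the 75 subunits, the log2 signal relative to each gene's mean was 0.00, 0.45 and -0.03 in double knockout tumors 1, 2 and 3, against 0.00, -0.06 and -0.35 in Apc knockout tumors 1, 2 and 3. Double knockout tumor 2 was thus high and Apc knockout tumor 3 low, while the other 4 tumors lay near the mean. Double knockout tumor 2 ranked highest for 80 of the 90 genes, against 28.5% of all probe sets, and Apc knockout tumor 3 ranked lowest for 73, against 19.0%. Both held for 70 of the 90 genes and for 8.8% of all probe sets. Among the 75 subunits, the exceptions to the first were Ndufa4 and Atp5g2, and those to the second were 7 subunits of complex I (Ndufa1, Ndufa6, Ndufa12, Ndufa13, Ndufc2, Ndufs3 and Ndufs5). The subunits come from 1 RNA sample per tumor and are not independent measurements of it.

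**Figure D1:**
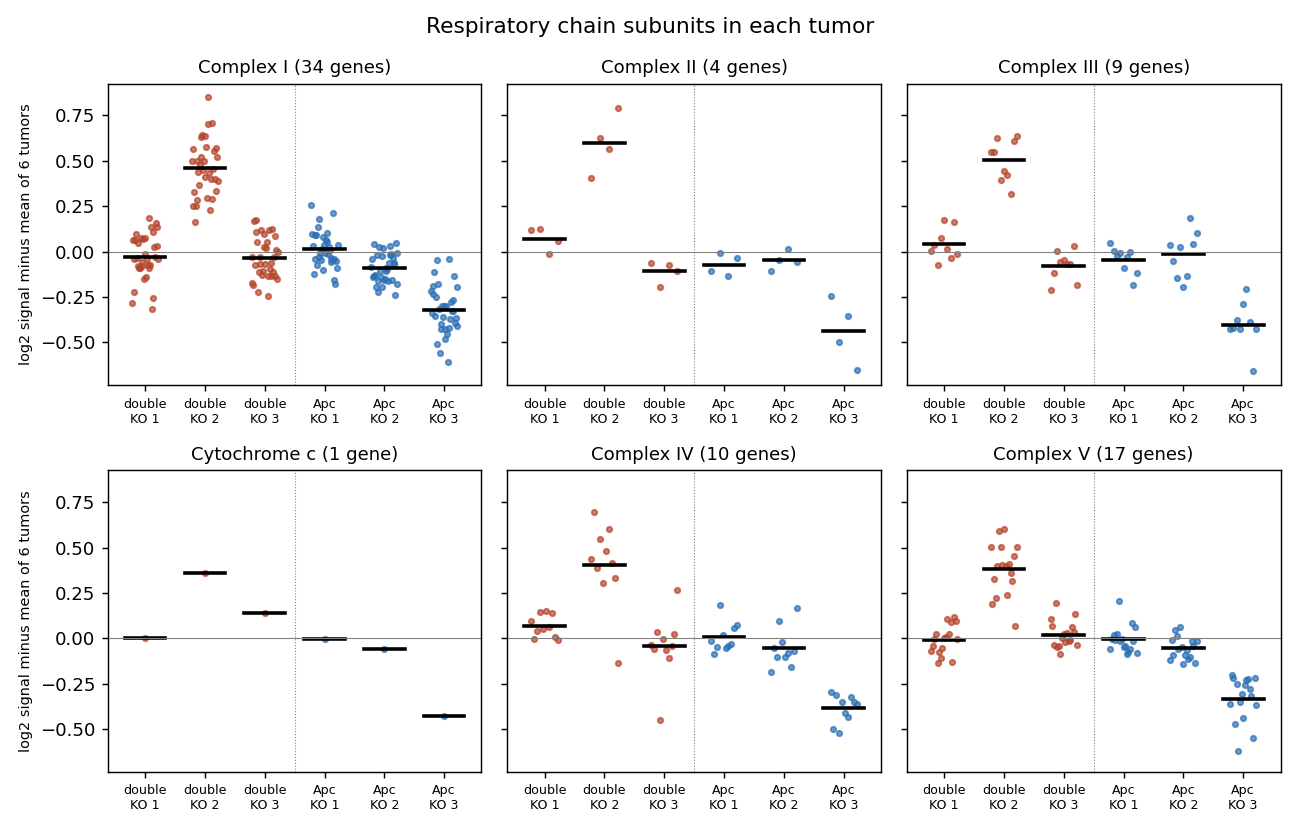
Log2 signal of each subunit minus its mean over the 6 tumors (vertical axis) in double knockout (red) and Apc knockout (blue) tumors, with 1 point per gene and a black bar at the mean of each complex. In complexes I to V the mean of double knockout tumor 2 lies between 0.38 and 0.60 and that of Apc knockout tumor 3 between -0.44 and -0.32.

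Taking the complexes one by one, the median log2 difference was 0.27 for complex I, 0.34 for complex II, 0.29 for complex III, 0.33 for cytochrome c, 0.32 for complex IV and 0.26 for complex V, against 0.01 over all probe sets tested. Without double knockout tumor 2 these medians were 0.12, 0.16, 0.12, 0.23, 0.17 and 0.13, and 76 of the 90 genes stayed above 0, against 50.5% of all probe sets. Without Apc knockout tumor 3 they were 0.17, 0.24, 0.18, 0.20, 0.24 and 0.14, and 80 of the 90 genes were above 0, against 53.2%. Leaving out any of the other tumors raised every median. The complexes also kept nearly the same proportions to each other within each tumor. Relative to the mean over all 75 subunits of the same tumor, complexes I, III, IV and V lay between -0.065 and 0.065 in all 6 tumors, and cytochrome c, a single gene, between -0.09 and 0.17. Complex II lay farther out, at 0.07, 0.15 and -0.08 in double knockout tumors, against -0.07, 0.02 and -0.09 in Apc knockout tumors, and these ranges overlapped.

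**Figure D2:**
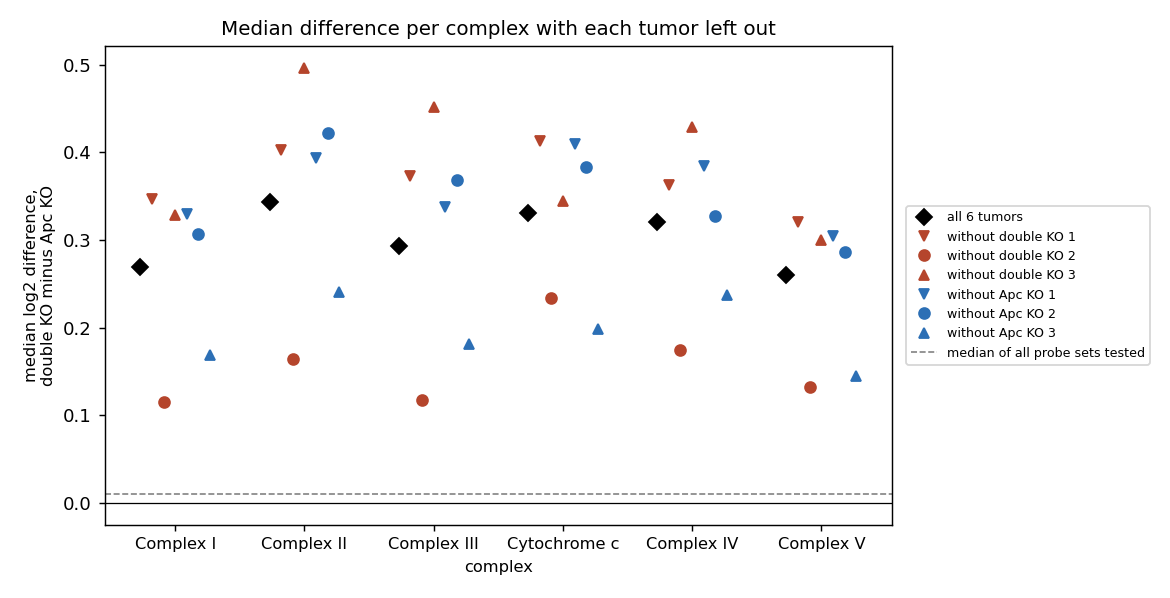
Median log2 difference per complex (double knockout minus Apc knockout, vertical axis) with all 6 tumors (black) and with each tumor left out (red: a double knockout tumor, blue: an Apc knockout tumor), and the median of all probe sets tested (dashed, 0.01). Every median stays above the dashed line, and the lowest values come from leaving out double knockout tumor 2 or Apc knockout tumor 3.

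Promoters of respiratory chain genes often hold binding motifs of the factors NRF1, ETS family proteins (among them GABP, also named NRF2) and YY1. In the RefSeq promoters of GRCm38.p6, which run from 250 bases before the start site to 50 after it, 74 of the 91 genes were matched, with 79 promoters. An NRF1 core (GCATGCGC or, on the other strand, GCGCATGC) was found in 13 of the 79 (16.5%), against 3.52% of 21263 promoters of protein-coding genes. An ETS core (CCGGAAG or CTTCCGG) was found in 18 (22.8%), against 11.6%, and a YY1 core (AAGATGGC or GCCATCTT) in 10 (12.7%), against 3.05%. At least 1 of the 3 motifs was found in 35 promoters (44.3%), against 16.7%. The motifs differ in sequence, but neighboring matches can overlap, and a match of letters does not show that a factor binds. Some of the 35 genes named with values by rule, among them Cyc1, Ndufs1 and Ndufa2, had no matched promoter and were not searched. Of the 35, 7 had a match, and these stretches are shown because they carry the motifs of genes described with values here. They are printed 5′ to 3′ on the strand of the gene, with the matches in capitals.
Ndufs7, chr10:80249462-80249491, plus strand, YY1 core: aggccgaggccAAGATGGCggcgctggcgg
Ndufs6, chr13:73328433-73328460, minus strand, YY1 core: gggtcaccggcAAGATGGCggcggtgct
Sdhb, chr4:140961187-140961300, plus strand, NRF1 core and then ETS core: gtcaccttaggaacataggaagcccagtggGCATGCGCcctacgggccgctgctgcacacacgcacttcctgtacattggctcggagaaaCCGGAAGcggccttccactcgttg
Sdhd, chr9:50603859-50603925, minus strand, ETS core: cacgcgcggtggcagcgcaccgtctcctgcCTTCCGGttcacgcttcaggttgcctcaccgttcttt
Uqcrh, chr4:116075044-116075110, minus strand, ETS core: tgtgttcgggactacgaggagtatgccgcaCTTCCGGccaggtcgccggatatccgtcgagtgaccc
Cycs, chr6:50566592-50566659, minus strand, NRF1 core: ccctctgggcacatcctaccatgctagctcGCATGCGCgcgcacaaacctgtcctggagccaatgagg
Atp5pb, chr3:105959234-105959296, minus strand, YY1 core: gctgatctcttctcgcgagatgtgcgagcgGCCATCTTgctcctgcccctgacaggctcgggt
The YY1 matches of Ndufs7 and Ndufs6 begin 24 and 33 bases after the start site, and that of Atp5pb 3 bases before it. The NRF1 match of Cycs begins 60 bases before the start site and that of Sdhb 54 bases before it.

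Complex I passes electrons from NADH along a chain of iron-sulfur clusters to ubiquinone. Ndufs7, the core subunit that carries the last cluster before ubiquinone, had the smallest limma p of all 75 subunits, and its promoter stretch holds a YY1 core. Its log2 signals were 11.84, 12.25 and 11.76 in double knockout tumors, against 11.50, 11.44 and 11.28 in Apc knockout tumors. All 3 double knockout tumors lay above all 3 Apc knockout tumors, and the gap did not rest on double knockout tumor 2 alone. The log2 difference was 0.54 (standard error 0.16, unadjusted p = 0.013, adjusted p = 0.82, limma), and 0.39 without double knockout tumor 2. The accessory subunit Ndufs6, which lies close to the NADH-binding module, had 9.89, 10.07 and 9.91 in double knockout tumors, against 9.74, 9.63 and 9.45 in Apc knockout tumors, a log2 difference of 0.35 (standard error 0.12, unadjusted p = 0.025, adjusted p = 0.82, limma). Ndufa2, another accessory subunit, had 9.90, 10.06 and 9.98 in double knockout tumors, against 9.77, 9.68 and 9.45 in Apc knockout tumors, with the same log2 difference of 0.35. In both, the groups did not overlap and the 3 double knockout tumors lay close together. Ndufs1, the 75 kDa iron-sulfur subunit, had 10.51, 11.04 and 10.45 in double knockout tumors, against 10.32, 10.41 and 10.16 in Apc knockout tumors. Ndufa5, of the matrix arm, had 9.10, 9.55 and 9.10 in double knockout tumors, against 8.97, 9.03 and 8.54 in Apc knockout tumors. For Ndufs1 and Ndufa5 the groups did not overlap, but 1 double knockout tumor was far above the other double knockout tumors. Ndufab1, the mitochondrial acyl carrier protein, had 10.45, 11.03 and 10.63 in double knockout tumors, against 10.47, 10.37 and 10.11 in Apc knockout tumors, which overlapped. The 6 core subunits had a median log2 difference of 0.29 and the 28 accessory subunits of 0.27. At the other end, Ndufa1, Ndufc2, Ndufv3 and Ndufa6 differed by 0.03, 0.04, 0.06 and 0.09.

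Complex II is succinate dehydrogenase, an enzyme of both the tricarboxylic acid cycle and the respiratory chain, and all of its 4 subunits are nuclear. Sdha, the flavoprotein that oxidizes succinate, had 12.11, 12.40 and 11.93 in double knockout tumors, against 11.88, 11.88 and 11.75 in Apc knockout tumors, with no overlap and a log2 difference of 0.31 (standard error 0.14, adjusted p = 0.82, limma). Sdhb, the iron-sulfur subunit, had 11.04, 11.54 and 10.72 in double knockout tumors, against 10.90, 10.87 and 10.42 in Apc knockout tumors. The groups overlapped for Sdhb, and they did so for both membrane anchors. Sdhc had 10.84, 11.42 and 10.78 in double knockout tumors, against 10.72, 10.87 and 10.50 in Apc knockout tumors. Sdhd had 10.96, 11.70 and 10.80 in double knockout tumors, against 10.87, 10.85 and 10.26 in Apc knockout tumors, and its log2 difference of 0.49 was 0.22 without double knockout tumor 2. Among the complexes, this one had the highest mean in double knockout tumor 2 (0.60) and the lowest in Apc knockout tumor 3 (-0.44).

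Complex III hands electrons from ubiquinol to cytochrome c. Cyc1, cytochrome c1, had the widest difference of its subunits, with 11.53, 11.98 and 11.40 in double knockout tumors, against 11.18, 11.41 and 10.71 in Apc knockout tumors (log2 difference 0.54, standard error 0.23, adjusted p = 0.82, limma). Its groups overlapped narrowly, by double knockout tumor 3 and Apc knockout tumor 2. Uqcrc2, a core protein of the matrix side, had 12.19, 12.47 and 11.97 in double knockout tumors, against 11.93, 11.83 and 11.73 in Apc knockout tumors, and these did not overlap (log2 difference 0.38, standard error 0.15, unadjusted p = 0.044, adjusted p = 0.82, limma). Uqcrfs1, the Rieske iron-sulfur protein that takes the first electron from ubiquinol, had 9.89, 10.54 and 9.72 in double knockout tumors, against 9.79, 10.004 and 9.47 in Apc knockout tumors, and its log2 difference of 0.29 was 0.05 without double knockout tumor 2. The small subunits Uqcrb and Uqcrh differed by 0.37 and 0.25, with overlap. Cycs, the soluble cytochrome c that also triggers apoptosis when it leaves the mitochondrion, had 12.76, 13.12 and 12.90 in double knockout tumors, against 12.76, 12.70 and 12.34 in Apc knockout tumors. Double knockout tumor 1 lay barely above Apc knockout tumor 1, so that the groups only just separated, and the log2 difference was 0.33 (standard error 0.16, adjusted p = 0.82, limma).

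Complex IV, cytochrome c oxidase, has a catalytic core encoded by mitochondrial DNA and a shell of nuclear subunits, which are the ones listed here. Cox5b, a zinc-binding subunit of the matrix side, was the only subunit of this complex without overlap, with 12.09, 12.44 and 12.09 in double knockout tumors, against 12.004, 11.95 and 11.74 in Apc knockout tumors (log2 difference 0.31, standard error 0.14, adjusted p = 0.82, limma). Cox7b had 12.95, 13.23 and 12.77 in double knockout tumors, against 12.78, 12.65 and 12.49 in Apc knockout tumors. The groups of Cox7b overlapped only narrowly, by double knockout tumor 3 and Apc knockout tumor 1. Cox6c, a small membrane subunit, differed by 0.38, and Cox4i1, a regulatory subunit that binds ATP, by 0.33. Ndufa4, once counted with complex I and now placed in complex IV, departed from the rest: it had 11.28, 11.15 and 11.55 in double knockout tumors, against 11.36, 11.45 and 10.93 in Apc knockout tumors. Here double knockout tumor 2 was the lowest of its group, and the log2 difference was 0.08 (standard error 0.18). Ndufa4 was singled out after its values were seen.

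Complex V is the ATP synthase, in which a rotating ring of c subunits drives the catalytic head. Atp5b, the catalytic β subunit, had 13.30, 13.43 and 13.22 in double knockout tumors, against 13.10, 13.13 and 12.96 in Apc knockout tumors, with no overlap and a log2 difference of 0.25 (standard error 0.11, adjusted p = 0.82, limma). Atp5d, a subunit of the central stalk, had 13.13, 13.40 and 13.03 in double knockout tumors, against 12.98, 12.94 and 12.77 in Apc knockout tumors. Its log2 difference was 0.29, again with no overlap. Atp5g1, which encodes the c subunit of the ring, had 12.35, 12.68 and 12.27 in double knockout tumors, against 12.21, 12.19 and 11.68 in Apc knockout tumors. Atp5pb, the b subunit of the peripheral stalk, had 11.75, 12.35 and 11.77 in double knockout tumors, against 11.70, 11.61 and 11.31 in Apc knockout tumors. Of the 8 subunits of the catalytic head, central stalk and ring, 6 had no overlap, as had 1 of the other 9 subunits, where 5.25% of all probe sets had none in this direction. The median log2 differences were 0.27 and 0.24, and the difference between these subunit groups was not tested.

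**Figure D3:**
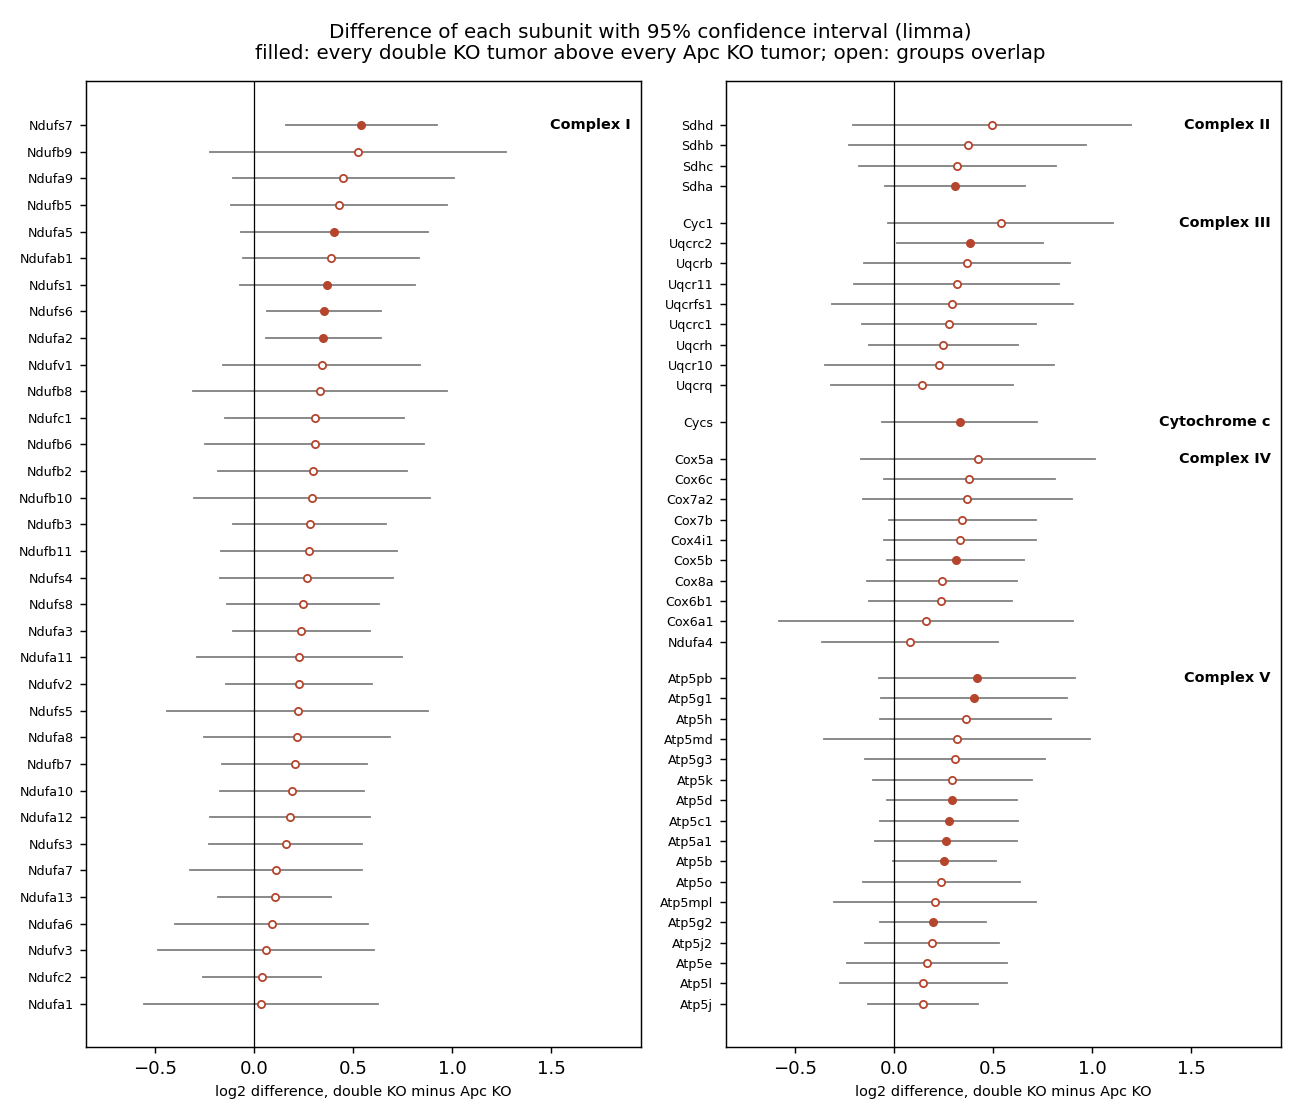
Log2 difference of each of the 75 subunits (double knockout minus Apc knockout, horizontal axis) with its 95% confidence interval from limma, by complex, with filled points where the groups do not overlap. All 75 points lie to the right of 0, between 0.03 and 0.54, and 4 intervals lie wholly above 0.

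Assembly factors build complex I without being part of it. Ndufaf1 to Ndufaf7 had a median log2 difference of 0.19, and 0.17 without double knockout tumor 2, and 7 of 7 were above 0. Ndufaf3 had 9.72, 10.03 and 9.79 in double knockout tumors, against 9.59, 9.33 and 9.61 in Apc knockout tumors (log2 difference 0.34, standard error 0.14, unadjusted p = 0.047, adjusted p = 0.82, limma). Ndufaf6 had 8.03, 7.93 and 7.98 in double knockout tumors, against 7.80, 7.82 and 7.73 in Apc knockout tumors. The groups overlapped in neither gene, and in Ndufaf6 double knockout tumor 2 was the lowest of its group. Cox7a2l, the supercomplex factor related to Cox7a2, ran the other way, with 10.23, 10.57 and 10.21 in double knockout tumors, against 10.60, 10.39 and 10.52 in Apc knockout tumors (log2 difference -0.17, standard error 0.14, adjusted p = 0.83, limma).

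Of the 8 tissue-restricted isoforms, 7 passed the filter, and their median log2 difference was 0.01. Double knockout tumor 2 was highest for 2 of the 7, against 28.5% of all probe sets, and Apc knockout tumor 3 lowest for 1, against 19.0%. Both counts were near the shares over all probe sets. Cox7a1, the heart and skeletal muscle isoform of Cox7a2, had the widest range of all members, with 8.10, 10.56 and 7.80 in double knockout tumors, against 8.19, 7.94 and 7.58 in Apc knockout tumors. Double knockout tumor 2 stood far above the other 5 tumors, and Apc knockout tumor 3 was lowest, as in most subunits. The log2 difference of 0.92 (standard error 0.72, adjusted p = 0.83, limma) was 0.05 without that tumor. Cox6b2, the testis isoform of Cox6b1, was the only member with all double knockout tumors below all Apc knockout tumors. It had 8.57, 7.74 and 8.39 in double knockout tumors, against 9.17, 8.88 and 8.84 in Apc knockout tumors, a log2 difference of -0.72 (standard error 0.24, unadjusted p = 0.021, adjusted p = 0.82, limma) and of -0.48 without double knockout tumor 2. The tumor with the highest subunit signals was thus the one with the lowest Cox6b2. Cox4i2, the lung and hypoxia isoform of Cox4, ranged from 7.43 to 7.79 over the 6 tumors, with a log2 difference of -0.03 that was 0.08 without Apc knockout tumor 3. Cox6a2 and Cox8b, both of heart and skeletal muscle, differed by 0.04 and 0.19 with overlap. For Ndufa4l2, a hypoxia-induced relative of Ndufa4, the difference was -0.11, and for the testis isoform Cox8c, which had the narrowest range of all members that passed the filter, it was 0.01. Cox7b2, also a testis isoform, lay between 4.43 and 4.81, below the filter on level of 5.88, and was not tested.

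**Figure D4:**
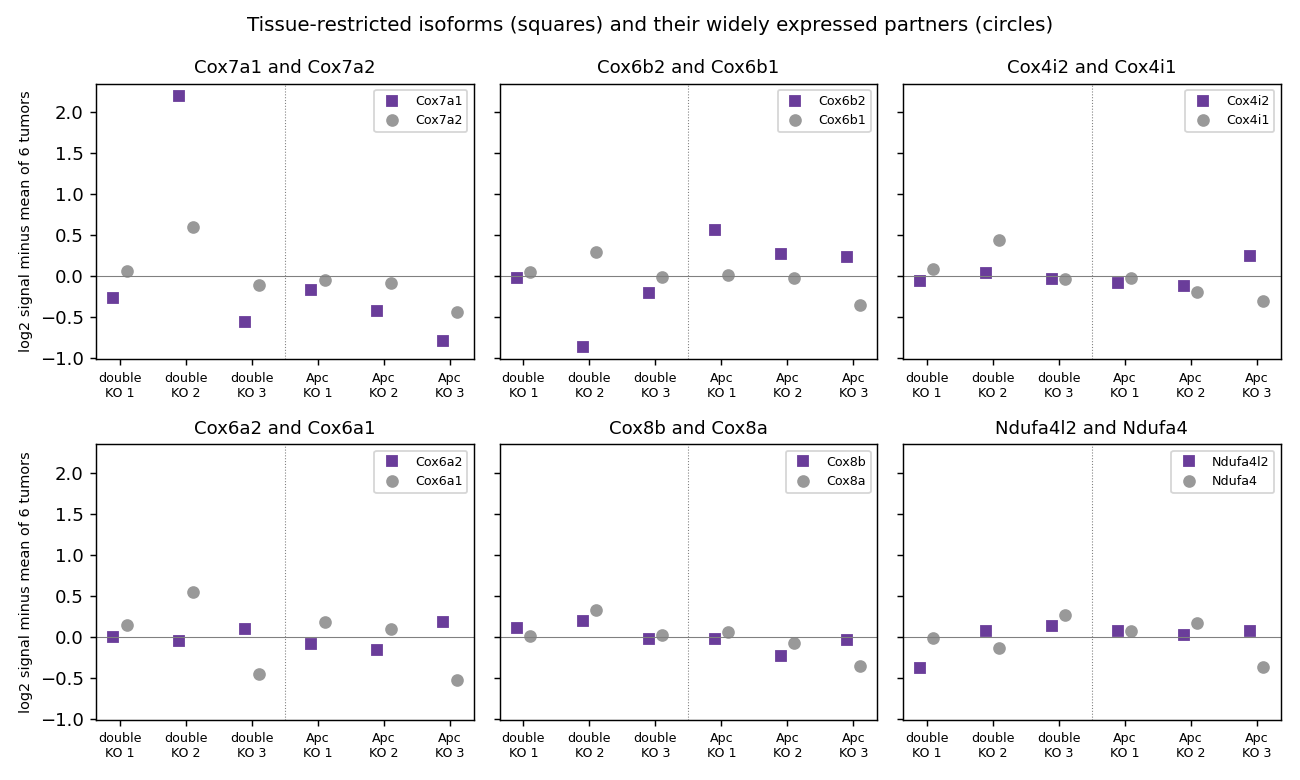
Log2 signal minus the gene's mean over the 6 tumors (vertical axis) for 6 tissue-restricted isoforms (squares) and their widely expressed partners (circles), with double knockout tumors at the left and Apc knockout tumors at the right. Cox7a1 stands out in double knockout tumor 2, where Cox6b2 is at its lowest, and the other isoforms stay within 0.4 of their means.

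Other mitochondrial genes were read from lists that the selection by symbol did not use. Genes of the tricarboxylic acid cycle, which supplies NADH and succinate, had a median log2 difference of 0.28, with 17 of 17 above 0 and 2 higher at an unadjusted limma p under 0.05. Over all probe sets, 52.3% were above 0 and 1.78% were higher at that p, which also holds as background for the lists that follow. Idh3b, a subunit of NAD-dependent isocitrate dehydrogenase, had 12.09, 12.27 and 11.88 in double knockout tumors, against 11.66, 11.74 and 11.56 in Apc knockout tumors, and Dlat, of the pyruvate dehydrogenase complex, differed by 0.33. Fatty acid oxidation genes had a median of 0.31, with 14 of 14 above 0 and 0 past the unadjusted threshold. Hadh and Decr1, enzymes of that pathway, differed by 0.66 and 0.62, and Decr1 had no overlap. The tricarboxylic acid cycle genes had means of 0.02, 0.54 and -0.08 in double knockout tumors, against -0.11, -0.07 and -0.30 in Apc knockout tumors. The fatty acid oxidation genes had 0.00, 0.64 and -0.17 in double knockout tumors, against -0.06, -0.17 and -0.25 in Apc knockout tumors. Double knockout tumor 2 was high in both pathways, and Apc knockout tumor 3 was lowest for 13 of 17 and 6 of 14 genes, against 19.0% of all probe sets. Without double knockout tumor 2 the medians of the log2 differences were 0.10 and 0.09. The 25 assembly factors of complexes III and IV had a median of 0.22, and 0.12 without double knockout tumor 2, with 24 above 0 and 4 higher at an unadjusted limma p under 0.05 (Bcs1l, Coa4, Lyrm7 and Coa3). Bcs1l, which inserts the Rieske protein into complex III, had 8.80, 9.12 and 8.76 in double knockout tumors, against 8.45, 8.13 and 8.50 in Apc knockout tumors, and Coa4, an assembly factor of complex IV, differed by 0.37. In 4 smaller lists no gene passed the unadjusted threshold. The 9 further complex I assembly factors had a median of 0.15, with Tmem70 and Timmdc1 at 0.32 each and no overlap. The 8 assembly factors of complexes II and V had a median of 0.01, with Tmem70, which is on both lists, and Atpaf2 at 0.26. The 11 ubiquinone synthesis genes had a median of 0.14, with Coq5 at 0.52 and Pdss2 at 0.44, both overlapping. The 12 other carriers and uncoupling proteins had a median of 0.27, and 0.13 without double knockout tumor 2, with 9 above 0 and 3 below. Slc25a5, an ADP/ATP carrier, was at 0.43 and Etfa, an electron carrier of fatty acid oxidation, at 0.37, both without overlap, whereas Gpd2, the mitochondrial glycerol 3-phosphate dehydrogenase, was at -0.28 with all double knockout tumors below all Apc knockout tumors.

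Mitochondrial import and ribosomal protein genes followed Apc knockout tumor 3 more than double knockout tumor 2. Averaged over the 23 import genes, the deviations were 0.02, 0.10 and 0.14 in double knockout tumors, against -0.05, 0.10 and -0.30 in Apc knockout tumors. Over the 77 genes listed as mitochondrial ribosomal proteins they were -0.03, 0.18 and 0.10 in double knockout tumors, against -0.01, 0.04 and -0.29 in Apc knockout tumors. Apc knockout tumor 3 was the lowest of the 6 for 21 of 23 and for 67 of 77 genes, against 19.0% of all probe sets. Double knockout tumor 2 was the highest for 7 and for 40, against 28.5%, so that the count of import genes was near that share. Their median log2 differences were 0.19 and 0.17, and 0.05 and 0.07 without Apc knockout tumor 3. Tomm22 and Tomm5, of the outer membrane import pore, differed by 0.34 and 0.50, and Mrps10 and Mrps36, of the ribosomal protein list, by 0.25 and 0.44. Of both lists, Mrps10 was the 1 gene past the unadjusted limma p of 0.05. Of the subunits encoded by mitochondrial DNA, 2 had a probe set of their own. COX2 had 13.76, 13.74 and 13.77 in double knockout tumors, against 13.72, 13.65 and 13.53 in Apc knockout tumors, and ND3 differed by 0.10 with overlap. Nuclear copies of mitochondrial DNA can share such probes, so these values are uncertain. The regulators of mitochondrial biogenesis had a median of 0.10, with 15 of 20 above 0 and 3 higher at an unadjusted limma p under 0.05. Ppargc1b, a coactivator of respiratory genes, had 9.07, 9.76 and 8.71 in double knockout tumors, against 8.17, 8.65 and 8.07 in Apc knockout tumors, with no overlap. Its log2 difference was 0.88 (standard error 0.30, unadjusted p = 0.025, adjusted p = 0.82, limma), and 0.59 without double knockout tumor 2. Esrrg, a nuclear receptor that acts with Ppargc1b, had 7.28, 7.76 and 7.13 in double knockout tumors, against 6.96, 6.70 and 6.97 in Apc knockout tumors.

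Both tumors that set the subunits apart also differed in cell type markers, as did other tumors. Epcam and Cdh1, defining markers of epithelium, were high in all 6 tumors, at 12.33 to 12.67 and 12.33 to 12.72. Krt18, with the smallest limma p of the colon epithelium markers, had 13.21, 12.55 and 13.18 in double knockout tumors, against 13.38, 13.40 and 13.39 in Apc knockout tumors, with no overlap. Vil1, with the next smallest limma p of these markers, had 11.59, 12.05 and 11.28 in double knockout tumors, against 11.33, 11.28 and 10.73 in Apc knockout tumors, with overlap. Of these 10 markers, 8 had a log2 difference above 0 and 2 below, where 52.3% of all probe sets were above 0. In double knockout tumor 2, 7 of the 10 were at their highest, against 28.5% of all probe sets, and 2 were at their lowest. Double knockout tumor 2 correlated with the other arrays at 0.956 to 0.968, whereas the best correlations among the others were between 0.987 and 0.988. In that tumor 15 of 21 colonocyte differentiation markers were at their highest, against 28.5% of all probe sets, and 3 were at their lowest. The mean of these markers lay 1.55 above the other double knockout tumors. Of 21 crypt stem cell and Wnt target markers, 17 were at their lowest there, with a mean difference of -1.79 from the other double knockout tumors. The share of all probe sets at their lowest in that tumor was not counted. The transporter Slc26a3, a marker of mature colonocytes, had 8.49, 12.35 and 6.25 in double knockout tumors, against 6.39, 6.47 and 6.98 in Apc knockout tumors. Slc9a3, with the smallest limma p of the colonocyte differentiation markers, ran the other way and was lowest in double knockout tumor 2. It had 9.52, 8.27 and 9.90 in double knockout tumors, against 9.76, 10.62 and 10.35 in Apc knockout tumors. Cdx2, the intestinal transcription factor, had 11.18, 8.24 and 10.93 in double knockout tumors, against 10.89, 10.73 and 10.08 in Apc knockout tumors. Smooth muscle markers were also highest in double knockout tumor 2 for 11 of 12 genes, against 28.5% of all probe sets. Their mean there lay 1.69 above the other double knockout tumors. Their summed log2 signal was 98.31 to 121.54 in double knockout tumors, against 98.09 to 105.13 in Apc knockout tumors. Skeletal and heart muscle markers, where Cox7a1 is known to be expressed, were 0.24 higher in that tumor than in the other double knockout tumors, and their summed log2 signal was 88.42 to 91.92 in double knockout tumors, against 88.18 to 89.96 in Apc knockout tumors. In Apc knockout tumor 3, 7 of 10 colon epithelium markers were at their lowest, where 19.0% of all probe sets were, with a mean difference of -0.40 from the other Apc knockout tumors, and the summed signal was 121.56 to 122.88 in double knockout tumors, against 117.99 to 122.20 in Apc knockout tumors. In the same tumor fibroblast, lymphocyte and smooth muscle markers had mean differences of 0.39, 0.41 and 0.33 from the other Apc knockout tumors, and endothelial markers of -0.38. Relative to each gene's mean, colonocyte differentiation markers averaged -0.92 in double knockout tumor 3 and -0.60 in Apc knockout tumor 2. Smooth muscle markers averaged -0.58 and -0.60 in these tumors, where the subunits were at -0.03 and -0.06. In Apc knockout tumor 3 colonocyte differentiation markers were at -0.08. The part of the cell type markers in the respiratory chain differences was not tested. A lower share of a cell type and less RNA per cell cannot be told apart in such samples.

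**Figure D5:**
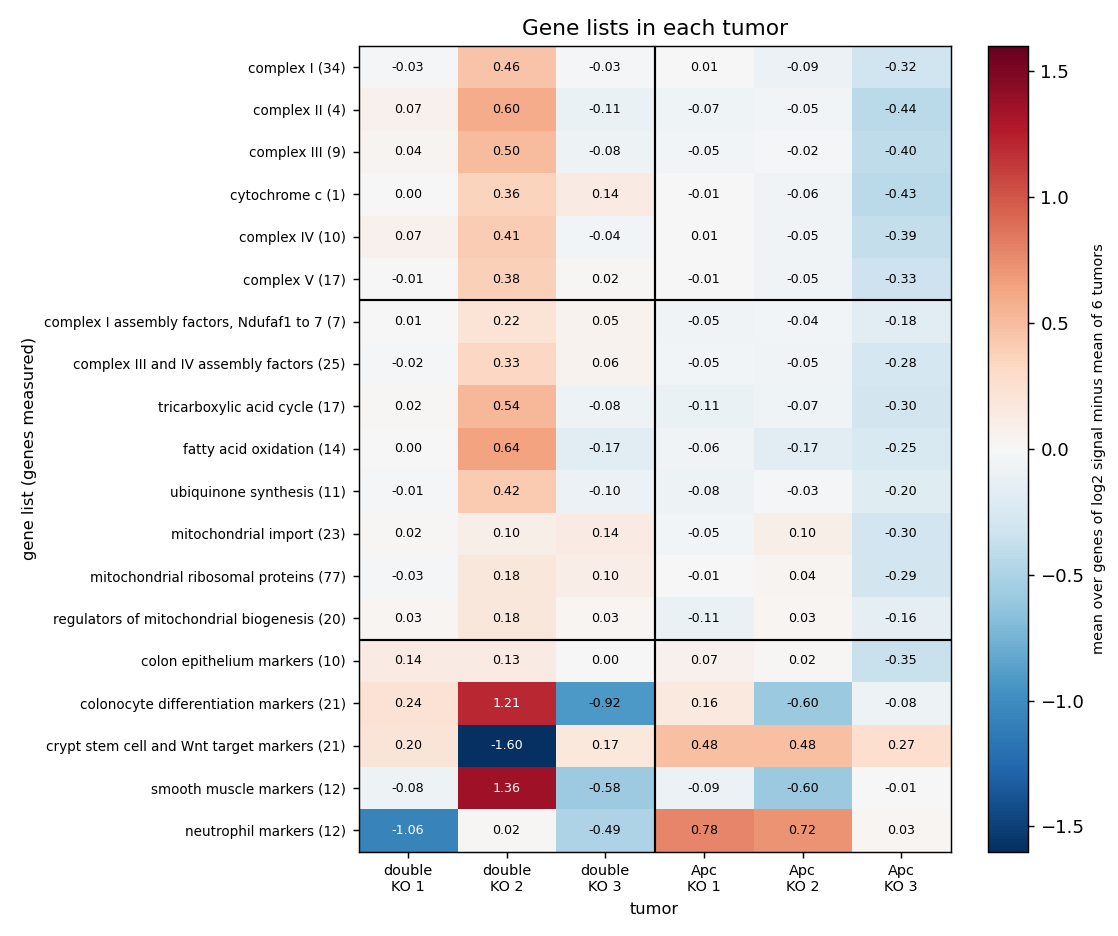
Mean over the genes of each list of the log2 signal minus the gene's mean over the 6 tumors (colour and printed value), for the complexes (top), other mitochondrial lists (middle) and marker lists (bottom), with double knockout tumors at the left and Apc knockout tumors at the right. The complexes, the tricarboxylic acid cycle and fatty acid oxidation share high values in double knockout tumor 2, where the crypt stem cell and Wnt target markers are at -1.60.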

How the data were processed

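RNA of 6 laser-dissected tumors was hybridized by the authors to Affymetrix Mouse Gene 1.0 ST arrays. That each tumor came from its own mouse was assumed here. The deposited values are log2 signals that the authors obtained with RMA in GeneSpring GX (background correction, quantile normalization, probe summary), with array medians of 7.68 to 7.80. The RMA version was not given in the sources read, and the labels name no batch. Precision is limited by how few arrays there are.

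Of 35556 probe sets, 21789 had 1 symbol in the platform annotation, 1621 several and 12146 none. The respiratory chain genes had 118 sets of their own, and the brightest set of each gene was used. A further 6 sets shared with a second gene or pseudogene (Cox7c, Ndufb4, Ndufs5) were left out. Sets of 15 of 18 genes with several differed by less than 0.1, but such sets can share sequence. Sets with a symbol and an average signal of at least the 20th percentile (5.88) were fitted with limma 3.58.1 (lmFit, eBayes; R 4.3.3), two-sided, double knockout minus Apc knockout, with Benjamini-Hochberg adjustment over all 19506 sets and a threshold of 0.05. The fit was tested on simulated data. An exact permutation test of these groups has 0.1 as its smallest two-sided p. Promoters came from RefSeq (GRCm38.p6).

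Genes were named by a rule: all of complex II, Cycs, Cyc1, Uqcrfs1, the isoforms, Cox7a2l, the smallest p-values of each other complex and of the lists described by gene, and the widest and narrowest range. Among the markers, Epcam, Cdh1, Slc26a3 and Cdx2 were named outside this rule. Members, lists and tests were chosen with earlier results of these data known. Alternatives changed the test (the t-test of the methods, eBayes with trend and robust), the filter (none, 40th percentile, coefficient of variation), the scaling (median centring, quantiles again), the probe set per gene and the members of complex IV, left out each tumor, or blocked by replicate number. Shared sets were counted in an alternative chosen after seeing the data.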

Additional observations from a re-analysis of the deposited data

How the results depend on the processing

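No respiratory chain gene passed the adjusted threshold under any alternative run, and the median of every complex stayed above 0. The study's cut-off of 20% against poorly reproducible entities does not name its measure, which was read as a percentile of level here and could be a spread. Where only sets with a within-group coefficient of variation below 20% were kept, a filter that by construction selects small spread, 107 of 15417 probe sets passed the adjusted threshold and 698 were higher at an unadjusted p under 0.05. Under it 54 respiratory chain genes remained, of which 51 had a difference above 0, 21 were higher at an unadjusted p under 0.05 and 0 lower. Median centring, under which the median of all probe sets was 0.04, gave 3 higher, and the methods' t-test 0 lower. With 1 tumor left out, between 1 and 10 respiratory chain genes were higher and between 0 and 2 lower at an unadjusted p under 0.05. The count higher was 1 when either double knockout tumor 2 or Apc knockout tumor 3 was left out, 3 when Apc knockout tumor 1 or 2 was left out, and 10 when double knockout tumor 3 was. Over all probe sets the counts lay between 238 and 710 higher and between 439 and 1006 lower, the fewest lower (439) when Apc knockout tumor 1 was left out, 481 lower when Apc knockout tumor 3 was, and the most of both when double knockout tumor 3 was. A group left with 2 tumors shares the spread of the other group in these fits.

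Of 462 values of 34 named genes under the alternatives, 455 kept their direction and their side of the threshold. Since none passed the adjusted threshold in any fit, this count rests on direction alone. Many of these genes were also chosen for small p-values in the same data. The sign turned in 4 isoforms. Cox4i2 was at 0.0022 after median centring and between -0.10 and 0.0842 with 1 tumor left out, Cox6a2 between -0.0329 and 0.14, Cox8c between -0.0424 and 0.0882 and Ndufa4l2 between -0.21 and 0.0452. Subunits outside that rule turned too. Without double knockout tumor 2, 66 of the 75 subunits stayed above 0, against 50.5% of all probe sets. Those that turned were Ndufa1 at -0.21, Ndufv3 at -0.15, Ndufa6 at -0.11, Ndufs5 at -0.08, Cox6a1 and Ndufc2 at -0.07, Ndufa7 at -0.05, Atp5l at -0.02 and Ndufs3 at -0.0042. Without Apc knockout tumor 3, 70 of the 75 stayed above 0, against 53.2%. Here Ndufa4 was at -0.08, Ndufa1 at -0.07, Ndufv3 and Cox6a1 at -0.06 and Uqcrq at -0.02. The cause was not tested. The tumors share replicate numbers across the genotypes. The deviations of same-numbered tumors correlated at -0.20, -0.06 and 0.09, and those of differently numbered tumors at -0.21 to 0.26. With so few tumors these values cannot decide whether the numbers pair them, and the main fit treated the tumors as unpaired. With the replicate number as a block, 5 respiratory chain genes were higher and 1 lower at an unadjusted p under 0.05 (421 and 929 of all 19506 probe sets), 86 had a difference above 0 and 0 passed the adjusted threshold.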

Other observations

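Neutrophil markers had a median log2 difference of -0.92 over 12 genes, with 11 below 0 and 4 lower at an unadjusted limma p under 0.05, where 3.82% of all probe sets were. Without double knockout tumor 2 the median was -1.48. Retnlg, which mature neutrophils express, had 6.90, 8.71 and 7.46 in double knockout tumors, against 9.82, 9.65 and 8.77 in Apc knockout tumors, with no overlap. Ngp, a neutrophil granule gene, had 5.96, 7.75 and 6.38 in double knockout tumors, against 10.50, 10.27 and 7.24 in Apc knockout tumors, with overlap. Averaged over these markers, the log2 signal relative to each gene's mean was -1.06, 0.02 and -0.49 in double knockout tumors, against 0.78, 0.72 and 0.03 in Apc knockout tumors. The fibroblast, endothelial, macrophage, lymphocyte and enteric glia and neuron markers had medians of -0.01, -0.05, -0.10, 0.23 and -0.04.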
